A study of Homo sapiens with 6 samples.

Results

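Interferon-stimulated effector genes encode proteins that act against viruses after interferon signalling. The 45 genes described here were selected on measured values, because the response of this list differed between MRC5 cells given JUN WT and MRC5 cells given JUN AA. They were taken by gene symbol, all 45 are listed, and they are 45 of 25368 symbols in each of 2 tables of FPKM, which scale fragments by the exon length of a gene and by library size. MRC5 is a line of human embryonic lung fibroblasts, used here in an immortalized form. The first table holds MRC5 infected for 2 h with adenovirus and cultured for 3 days, where the virus carried an empty vector (control), FLAG-tagged JUN WT, or FLAG-tagged JUN AA with serines 63 and 73 of JUN, the sites that the kinase JNK phosphorylates, changed to alanine. The second table holds untreated MRC5, iCAFs (induced cancer-associated fibroblasts, MRC5 kept for 7 days in medium conditioned by MDA-MB-231 breast cancer cells, with DMSO as the vehicle) and iCAFs+JNKi (iCAFs given the JNK inhibitor JNK-IN-8 at 1 µM for 48 h). All libraries of the first table came from adenovirus-infected cells and none of the second did, so each comparison was made within a table, and effects of the virus that all 3 infected libraries share cannot be read from these data. Each condition has 1 library, so no difference below has a replicate check, an error or a p-value.

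Type I interferons such as interferon beta bind the receptor IFNAR1 with IFNAR2 and activate the kinases JAK1 and TYK2. These activate a transcription factor complex that contains STAT2 and IRF9 and binds the interferon-stimulated response element in promoters, while interferon gamma acts through the gamma-activated site. The products block viral entry, sense or cut viral RNA, stop translation or tag proteins with ISG15, and fibroblasts are a classical source of interferon beta. JUN is a subunit of AP-1, which binds a heptamer sequence of its own and, with other factors, the enhancer of the interferon beta gene.

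Promoter stretches are printed for some members with large or small differences, including IFIT and IFITM genes, and for ISG15, but not for the OAS and PARP genes. They show the element through which the list is known to respond. Promoters of 300 bases, 250 before and 50 after the start site, were available from RefSeq on GRCh38.p14 for 37 of the 45 members, with IFIT2, IFITM2, OAS2, OASL, USP18, MX2, TRIM22 and LAMP3 not among them. Capitals mark the response element core, searched as GAAANNGAAA on both strands, so that a core on the other strand reads as its reverse complement. Each line reads 5′ to 3′ along the strand of the gene.
IFI6 at chr1:27672251-27672310, minus strand: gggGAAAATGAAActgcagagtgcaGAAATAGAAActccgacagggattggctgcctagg
MX1 at chr21:41420523-41420582, plus strand: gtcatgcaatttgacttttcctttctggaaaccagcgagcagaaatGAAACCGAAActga
BST2 at chr19:17405723-17405782, minus strand: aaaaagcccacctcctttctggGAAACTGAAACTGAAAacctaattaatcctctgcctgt
IFI27 at chr14:94110609-94110668, plus strand: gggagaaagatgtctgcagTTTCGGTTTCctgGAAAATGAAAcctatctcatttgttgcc
IFITM1 at chr11:313992-314051, plus strand: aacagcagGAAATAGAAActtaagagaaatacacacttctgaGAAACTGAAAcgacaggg
IFITM3 at chr11:320870-320929, minus strand: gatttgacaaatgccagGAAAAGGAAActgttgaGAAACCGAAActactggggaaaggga
ISG20 at chr15:88638922-88638981, plus strand: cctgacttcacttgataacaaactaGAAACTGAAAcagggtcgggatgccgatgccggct
IFIT1 at chr10:89392488-89392547, plus strand: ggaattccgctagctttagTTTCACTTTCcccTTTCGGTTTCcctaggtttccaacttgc
IFIT5 at chr10:89414518-89414577, plus strand: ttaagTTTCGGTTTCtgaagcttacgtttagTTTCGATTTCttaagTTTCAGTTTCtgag
ISG15 at chr1:1013362-1013421, plus strand: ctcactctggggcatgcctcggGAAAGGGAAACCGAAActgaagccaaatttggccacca
IFI6, MX1 and BST2 had the largest log2 differences between JUN AA and control, ISG20 had the largest between JUN WT and control, and IFIT5 was among the members that differed least. The core was found in 27 of the 37 member promoters (72.97%) and in 996 of all 27305 promoters (3.65%). CMPK2, HERC6, IFI35, OAS1, PARP9, RSAD2, SAMD9L, SP100, UBE2L6 and XAF1 had no match in this window. The gamma-activated site, searched as TTCNNNGAA, was in 9 member promoters (24.3%) against 7.88% of all promoters, and it overlapped a core in IFITM1, IFI27, BST2 and EPSTI1. The AP-1 heptamer, searched as TGANTCA, was in 4 member promoters, those of IFIT5, ISG20, SAMD9L and SP100 (10.8%), against 7.76% of all promoters. The response element is a known feature of many such genes, so its high share describes the list and is no finding of these libraries. As a description without a test, the median log2 difference between JUN AA and control was -2.07 with a core and -1.67 without one, and between JUN WT and control it was 0.91 with a core and 1.15 without one.

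**Figure D1:**
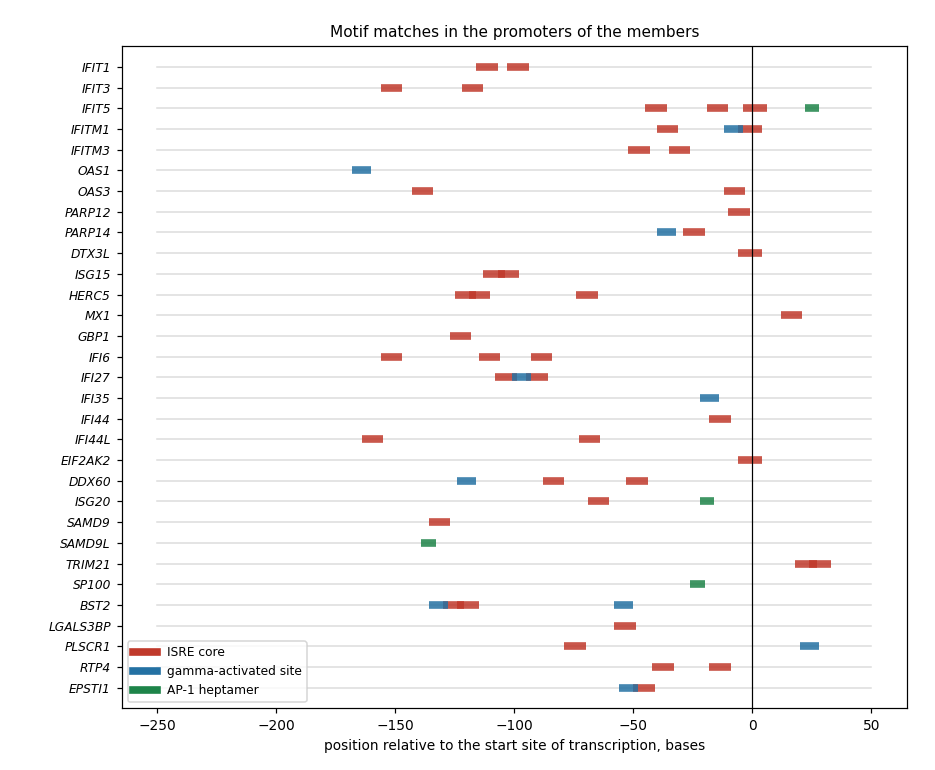
Motif matches in the member promoters that held at least 1 match, with the distance from the start site of transcription in bases on the horizontal axis and 1 line per gene. Bars mark the response element core, the gamma-activated site and the AP-1 heptamer, and most cores lie within 150 bases before the start site.

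The libraries were checked first. JUN, the overexpressed gene, was at 25.5 FPKM with empty vector, 4543 FPKM with JUN WT and 291 FPKM with JUN AA, so the lack of the phosphorylation sites and the lower JUN mRNA of JUN AA cannot be told apart. The dose of each virus is not given in the sources used here, so unequal infection cannot be told apart from them either. All 10 fibroblast markers were at 1 FPKM or more in each of the 6 libraries, and the 4 endothelial markers summed to 0.628 FPKM or less. CDH1, CD3E and CDH5, defining markers of epithelium, T cells and endothelium, were listed at 0 in all 6, and the leukocyte marker PTPRC was at 0.0148 FPKM or less. The summed leukocyte list ranged from 33.2 to 86.0 FPKM, nearly all of it CD68, a lysosomal protein that fibroblasts also make, with LYZ at 2.03 FPKM in JUN AA as the only other leukocyte marker at 1 FPKM or more. CD68 was at 32.6 FPKM with empty vector, 85.7 FPKM with JUN WT and 31.1 FPKM with JUN AA, and the epithelial list summed to 56.4, 22.0 and 19.99 FPKM in the same order, nearly all of it KRT18 and KRT8. Their part in the results was not tested. The sequencing depth is unknown. The FPKM of all rows added up to 494603 with empty vector, 498514 with JUN WT and 613184 with JUN AA, and to between 359944 and 399532 in the second table.

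The effector genes were highest in JUN WT, intermediate in the control and lowest in JUN AA. This order held for 41 of the 45 members, and the share of all genes in it was not computed. Of the 10311 genes with a mean of 1 FPKM or more, 6282 were higher in JUN WT than in the control. In JUN AA, 5298 of them were lower than in the control. DDX60, IFITM2 and IFITM3 were highest in the control and lowest in JUN AA, and LAMP3 stayed below 0.1 FPKM in all 3 libraries. The members together took 1.34% of the FPKM sum with empty vector, 2.06% with JUN WT and 0.192% with JUN AA. Their median level was 8.71 FPKM with empty vector, 22.2 FPKM with JUN WT and 0.992 FPKM with JUN AA, where only 22 of the 45 reached 1 FPKM, against 41 in the control and 44 in JUN WT. CMPK2, RSAD2, OAS2, MX2 and RTP4 were listed at 0 in JUN AA. Below, 3 levels given without names stand in the order control, JUN WT and JUN AA, and in the second table in the order MRC5, iCAFs and iCAFs+JNKi.

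**Figure D2:**
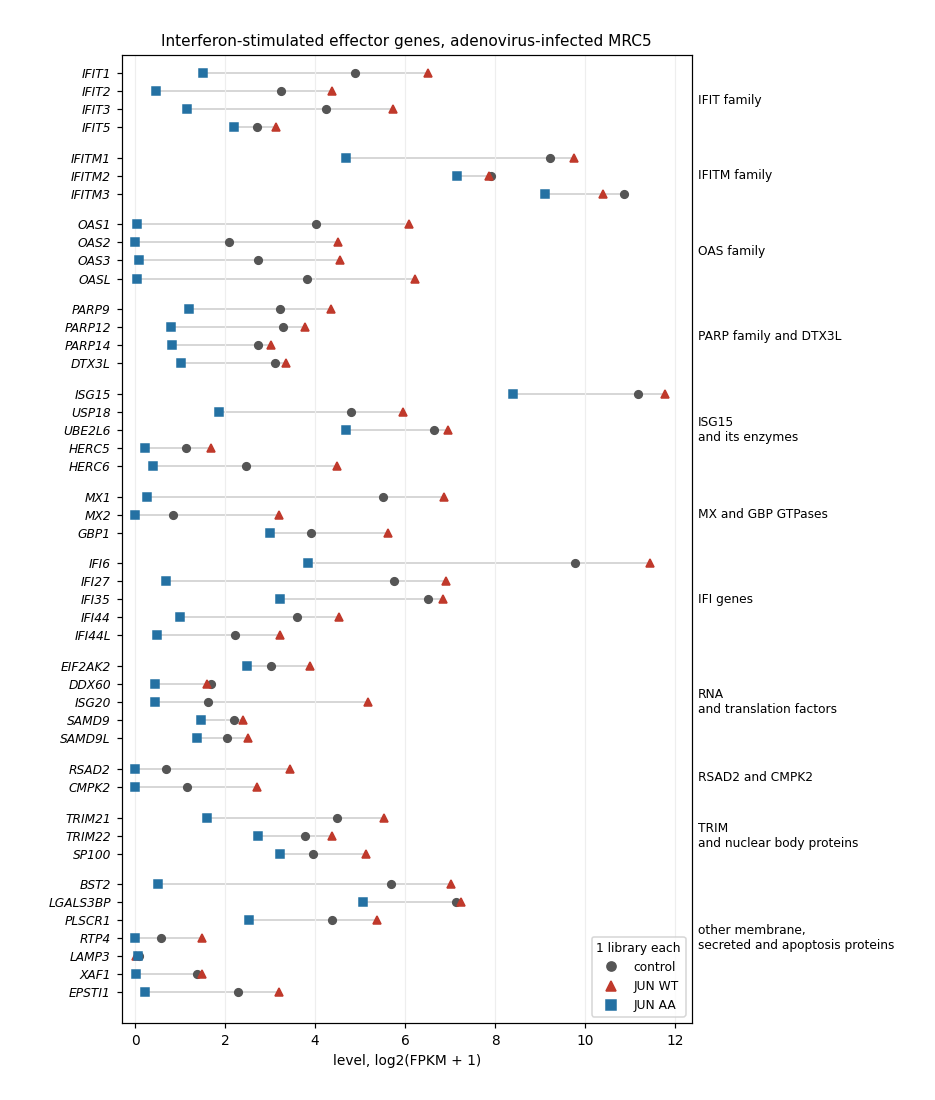
Levels of the 45 members in the control (circles), JUN WT (triangles) and JUN AA (squares), as log2(FPKM + 1) with 1 library each and grey lines spanning the 3 values of a gene. JUN AA is the leftmost symbol in every row except that of LAMP3, where all 3 symbols lie near 0, and the spread is widest for IFI6 and MX1.

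Differences were computed as log2(FPKM + 1), a scale that understates the difference of low genes, and a difference of at least 1 is called 2-fold, counted over genes whose mean over the 3 libraries was 1 FPKM or more. LAMP3 and RTP4 missed that mean and 43 members passed it. The mean includes the library where a gene is high, so the filter can favour such genes. RSAD2 and MX2, below 1 FPKM in the control and JUN AA, passed only through their JUN WT level. CMPK2, HERC5 and XAF1, above 1 FPKM in the control, also had a mean below 1 FPKM without their JUN WT level. The counts of members higher in JUN WT below include such members. In JUN WT against the control, 21 members were at least 2-fold higher and 0 lower, where 6.92% of all 10311 genes were higher and 3.39% lower. The median over all 45 members was 0.99, against 0.15 over all genes. In JUN AA against the control, 33 members were at least 2-fold lower and 0 higher, where 3.77% of all genes were lower and 5.29% higher, and the medians were -2.02 for the members and -0.02 for all genes. Between JUN WT and JUN AA, 40 members were at least 2-fold higher in JUN WT and 0 lower, where 6.65% of all genes were higher and 5.61% lower, and the medians were 2.97 and 0.18. Of the 10 genes furthest below the control in JUN AA among all 10311, 8 were members, and of the 10 furthest above it in JUN WT, 1 was. These 3 contrasts chose the list and share libraries with each other, so the counts describe it and nothing was tested. Near the 2-fold line, TRIM21 lay just inside at 1.06 and PLSCR1 just outside at 0.997 in JUN WT against the control. The same neighbours were TRIM22 at -1.05 and GBP1 at -0.92 in JUN AA against the control, and SAMD9L at 1.13 and IFIT5 at 0.93 between JUN WT and JUN AA. Scaling moved the median gene itself when each library was rescaled to an equal sum. It was then -0.29 in JUN AA against the control and 0.47 between JUN WT and JUN AA. Past the line were then 41 and 43 members, and the share of all genes was not computed at this scaling. The equal sum is above that of every library, so the added 1 also weighs less than before.

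**Figure D3:**
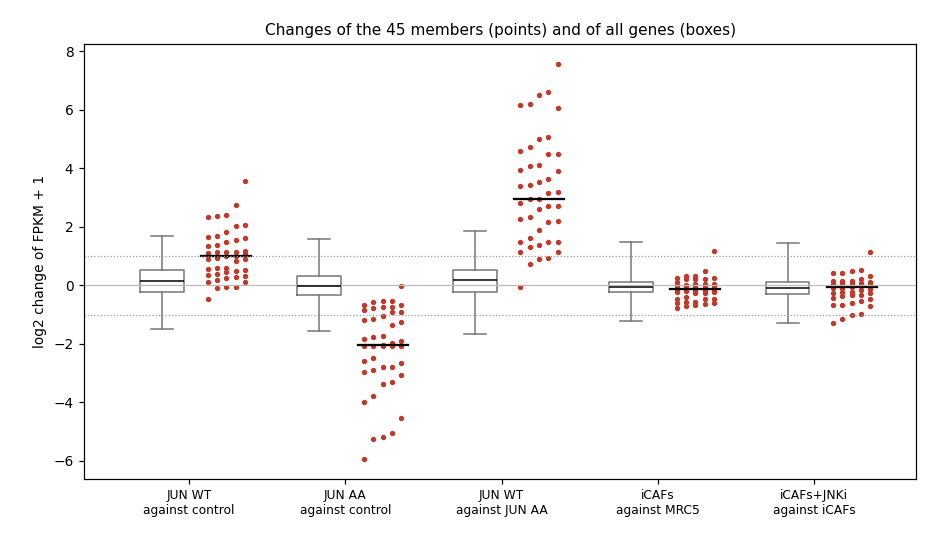
Log2 differences of FPKM + 1 in the 5 comparisons. Points are the 45 members with a bar at their median, boxes give the quartiles and median of all genes whose mean was 1 FPKM or more, whiskers reach the 1st and 99th percentiles, and dotted lines mark 2-fold. The members' medians are 0.99, -2.02 and 2.97 in the first table and -0.11 and -0.06 in the second.

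The IFIT proteins bind viral RNA that lacks the cap methylation of host mRNA and hold it back from translation. Their 4 genes lie together on GRCh37 at chr10:91043451-91181362. IFIT1, which binds uncapped or unmethylated ends, was at 28.5 FPKM with empty vector, 90.1 FPKM with JUN WT and 1.84 FPKM with JUN AA, log2 differences from the control of 1.63 and -3.38. IFIT3, which stabilises IFIT1 in a complex, followed it at 17.8 FPKM with empty vector, 52.1 with JUN WT and 1.22 with JUN AA (1.499 and -3.08). IFIT2, the third partner of that complex, was lower throughout at 8.52, 19.7 and 0.384 FPKM (1.12 and -2.78). In these 3 genes the JUN WT level was 42.7 to 51.3 times the JUN AA level in FPKM. IFIT5, whose promoter stretch above holds 3 cores, stood apart at 5.57 FPKM with empty vector, 7.70 FPKM with JUN WT and 3.58 FPKM with JUN AA, log2 differences of only 0.40 and -0.52. IFIT1, IFIT3 and IFIT5 all hold a core match, their differences were unequal, and use of the element was not tested.

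IFITM proteins sit in plasma and endosomal membranes and hinder fusion of viral envelopes. Their genes lie at chr11:303655-329475 and were among the most abundant members per length. IFITM1, found mainly at the cell surface, was at 598 FPKM with empty vector, 858 FPKM with JUN WT and 24.6 FPKM with JUN AA, which is 24.3 times lower in JUN AA than in the control. IFITM3, of late endosomes, was at 1855 FPKM with empty vector, 1347 FPKM with JUN WT and 547 FPKM with JUN AA, and it was the highest of all members in JUN AA. IFITM2 measured 238, 232 and 140.3 FPKM in that order. Log2 differences in JUN WT were 0.52 for IFITM1, -0.04 for IFITM2 and -0.46 for IFITM3, and in JUN AA they were -4.55, -0.76 and -1.76. The family therefore held the fifth most negative member in JUN AA against the control and also members that were no higher in JUN WT. IFITM2 and IFITM3 are near-identical copies, so the split of reads between them is uncertain.

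OAS enzymes make 2′-5′ oligoadenylate on double-stranded RNA and thereby switch on RNase L, and the family was near 0 in JUN AA throughout. OAS1, OAS3 and OAS2 lie at chr12:113343661-113449528, and OASL, which has no synthetase activity and aids RIG-I, lies apart on chromosome 12. OAS1 was at 15.1 FPKM with empty vector, 67.0 FPKM with JUN WT and 0.0245 FPKM with JUN AA. OASL was at 13.2 FPKM, 72.96 FPKM and 0.0364 FPKM, and OAS3, the form with the highest affinity for long RNA, was at 5.66, 22.5 and 0.0546 FPKM. OAS2 was at 3.24 FPKM with empty vector and 21.7 FPKM with JUN WT and was listed at 0 with JUN AA. All 4 were at least 2-fold higher in JUN WT, with log2 differences from 1.82 for OAS3 to 2.42 for OAS2, and at least 2-fold lower in JUN AA, from -2.08 for OAS2 to -3.97 for OAS1. The median of the family in JUN WT against the control was 2.23.

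PARP9, PARP12 and PARP14 are ADP-ribosyltransferases of the interferon response, and DTX3L is the ubiquitin ligase that pairs with PARP9. PARP9 was at 8.32 FPKM with empty vector, 19.3 FPKM with JUN WT and 1.29 FPKM with JUN AA. DTX3L was at 7.61, 9.29 and 1.03 FPKM. PARP14, which also modulates STAT signalling, was at 5.63, 7.12 and 0.773 FPKM. These 3 genes share the region chr3:122246771-122449687. PARP12, on chromosome 7, was at 8.71 FPKM, 12.6 FPKM and 0.737 FPKM. All 4 were at least 2-fold lower in JUN AA, within the narrow range of -2.48 to -1.90, whereas in JUN WT only PARP9 reached 2-fold at 1.13 and the others lay between 0.26 and 0.49.

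ISG15 is the ubiquitin-like protein of the response, UBE2L6 its conjugating enzyme, HERC5 its main ligase and USP18 the protease that removes it. ISG15 was the most abundant member in the control and JUN WT, at 2305 and 3512 FPKM, and was at 335 FPKM with JUN AA, a log2 difference of -2.78 from the control. USP18, which also restrains the receptor IFNAR2, was at 26.9 FPKM with empty vector, 61.2 FPKM with JUN WT and 2.62 FPKM with JUN AA. UBE2L6 was at 99.3, 124 and 24.7 FPKM, the smallest JUN WT difference of this set at 0.31. HERC6, a relative of HERC5, was at 4.53 FPKM, 21.4 FPKM and 0.311 FPKM (2.02 and -2.08 from the control). HERC5 was far lower per length, at 1.18, 2.23 and 0.160 FPKM, although both lie within chr4:89299891-89427314.

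MX1 and MX2 are dynamin-like GTPases that trap the nucleocapsids of influenza and of HIV-1 respectively, and GBP1 is a GTPase that coats intracellular pathogens. MX1 was at 44.4 FPKM with empty vector, 116 FPKM with JUN WT and 0.203 FPKM with JUN AA, log2 differences of 1.36 and -5.24, the second largest in JUN AA. Its neighbour MX2 was at 0.803 FPKM with empty vector and 8.13 FPKM with JUN WT, 10.1 times higher, and was listed at 0 with JUN AA. GBP1, a gene more typical of interferon gamma, was at 14.1 FPKM, 48.0 FPKM and 6.96 FPKM. It was at least 2-fold higher in JUN WT at 1.70 and, at -0.92, not past the line in JUN AA.

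The 5 members named IFI had a median of -3.29 in JUN AA against the control. IFI6, a mitochondrial and endoplasmic reticulum protein that limits flavivirus replication, was at 875 FPKM with empty vector, 2751 FPKM with JUN WT and 13.4 FPKM with JUN AA. That is 65.4 times lower in JUN AA than in the control, and its log2 difference of -5.93 was the most negative of all 10311 genes. IFI27, a small protein of the same family, was at 52.8, 118 and 0.616 FPKM, a difference of -5.06 in JUN AA. IFI35, a leucine zipper protein that pairs with NMI, was at 89.4 FPKM, 114 FPKM and 8.24 FPKM and was hardly higher in JUN WT (0.34). IFI44 was at 11.02, 22.2 and 0.992 FPKM and its neighbour IFI44L at 3.67, 8.28 and 0.406 FPKM. Both lay just under 2-fold higher in JUN WT, at 0.95 and 0.99, and all 5 IFI members were at least 2-fold lower in JUN AA.

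The factors that act on RNA and translation held both the largest difference in JUN WT and some of the smallest in JUN AA. ISG20, an exonuclease that degrades single-stranded RNA, was at 2.07 FPKM with empty vector, 35.4 FPKM with JUN WT and 0.353 FPKM with JUN AA, and its JUN WT level was 17.1 times the control. Its promoter is 1 of the 4 with an AP-1 heptamer. SP100, SAMD9L and IFIT5, which also hold the heptamer, had JUN WT differences of 1.17, 0.47 and 0.40. The heptamer was in 10.8% of the member promoters and 7.76% of all promoters, and its part was not tested. EIF2AK2, the kinase PKR that stops translation on double-stranded RNA, was at 7.16, 13.7 and 4.61 FPKM, within 2-fold of the control in both directions (0.85 and -0.54). DDX60, a helicase linked to RNA sensing, was at 2.24 FPKM, 2.02 FPKM and 0.358 FPKM. SAMD9 and SAMD9L, which restrict poxviruses, are neighbours at chr7:92728826-92777698. SAMD9 was at 3.59 FPKM with empty vector, 4.25 with JUN WT and 1.78 with JUN AA, and SAMD9L was at 3.09, 4.68 and 1.60 FPKM. Neither was past 2-fold against the control in either library.

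RSAD2 (viperin), which makes a chain-terminating nucleotide from CTP, and its neighbour CMPK2, a mitochondrial nucleotide kinase, were low in the control, and both were at 0 as listed for JUN AA. RSAD2 was at 0.604 FPKM with empty vector and 9.79 FPKM with JUN WT, a log2 difference of 2.75 that was second only to ISG20 among the members. CMPK2 was at 1.21 FPKM with empty vector and 5.54 FPKM with JUN WT (1.57). Because both started near 1 FPKM, their log2 differences in JUN AA, -0.68 and -1.14, could not be large on this scale.

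Among the TRIM and nuclear body proteins, TRIM21, the cytosolic antibody receptor and ubiquitin ligase, was at 21.3 FPKM with empty vector, 45.5 FPKM with JUN WT and 2.02 FPKM with JUN AA. TRIM22, a ubiquitin ligase active against several viruses, was at 12.8, 19.8 and 5.67 FPKM. SP100, a component of PML nuclear bodies, was at 14.5 FPKM, 33.9 FPKM and 8.32 FPKM. TRIM21 was the furthest below the control in JUN AA at -2.89, against -1.05 for TRIM22 and -0.73 for SP100, which stayed within 2-fold.

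The remaining members act in membranes, outside the cell or in apoptosis. BST2 (tetherin), which holds budding virions at the cell surface, was at 50.1 FPKM with empty vector, 129 FPKM with JUN WT and 0.419 FPKM with JUN AA, the third most negative log2 difference at -5.17. LGALS3BP, a secreted glycoprotein that binds galectin 3, was at 139, 149.8 and 32.2 FPKM. PLSCR1, a phospholipid scramblase, was at 19.7 FPKM, 40.2 FPKM and 4.79 FPKM. EPSTI1, described first at the contact of breast carcinoma with stroma, was at 3.90, 8.16 and 0.172 FPKM. XAF1, an antagonist of the apoptosis inhibitor XIAP, was at 1.61 FPKM, 1.81 FPKM and 0.0113 FPKM. BST2 was past the 2-fold line in both libraries and EPSTI1 only in JUN AA, with 0.90 in JUN WT. The JUN WT differences of LGALS3BP (0.11) and XAF1 (0.11) turned slightly negative once centred on the median gene. RTP4, a Golgi chaperone of receptors, was at 0.484 FPKM with empty vector and 1.80 FPKM with JUN WT and was listed at 0 with JUN AA, and LAMP3, a lysosomal protein best known from dendritic cells, was at 0.0668, 0.0155 and 0.0511 FPKM.

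Position was shared by 23 members in 9 clusters with gaps of at most 200000 bp, and the members of a cluster did not always differ alike. In the IFIT cluster the log2 difference of JUN AA from the control ran from -3.38 to -0.52, in the IFITM cluster from -4.55 to -0.76 and in the MX cluster from -5.24 to -0.85. In the PARP9, DTX3L and PARP14 cluster it ran only from -2.09 to -1.90, and for SAMD9 and SAMD9L only from -0.72 to -0.66. Exon bases on GRCh37 were shared with another listed gene by 9 members, and the strand setting of the counting is not given in the sources used here. IFIT2 and IFIT3 overlap 65 and 94 bases of LIPA on the opposite strand. LIPA, named for this overlap, was at 5.11 FPKM with empty vector, 37.5 FPKM with JUN WT and 12.5 FPKM with JUN AA and so was higher in JUN AA than in the control, unlike both IFIT genes. PARP9 shares bases with DTX3L and RSAD2 with CMPK2, so reads shared within these pairs cannot be told apart. MX1 overlaps TMPRSS2, which was at 0.0124 FPKM or less, TRIM22 overlaps OR56B1, which was listed at 0, and EIF2AK2 overlaps 35 bases of GPATCH11.

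The genes upstream of the effectors were read from lists of the pathway. IFNB1, which encodes interferon beta, was at 0.381 FPKM with empty vector, 11.3 FPKM with JUN WT and was listed at 0 with JUN AA. IFNA1, IFNK, IFNL2, IFNL3 and IFNG were listed at 0 in all 3 libraries, and IFNL1 was at 0.385 FPKM or less. IFNAR1 was at 3.60, 4.96 and 3.13 FPKM and IFNAR2 at 2.43, 3.78 and 2.02 FPKM, so both receptor chains were present in all 3 and within 2-fold. Of the 14 ligands and receptors, 6 passed the mean of 1 FPKM, 2 were at least 2-fold higher in JUN WT (IFNB1 and IL10RB), and 0 were past the line in JUN AA. All genes gave 6.92% higher in JUN WT, and 5.29% higher and 3.77% lower in JUN AA. So few genes give no result on this list, and IFNB1 passed the mean only through its JUN WT level. IL10RB, a receptor chain for interferon lambda and interleukin 10, was at 7.96, 18.2 and 4.01 FPKM.

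Among the signalling genes and IRFs, STAT2 was at 25.9 FPKM with empty vector, 17.4 FPKM with JUN WT and 5.71 FPKM with JUN AA, lower than the control in both. IRF9 was at 51.1 FPKM, 59.8 FPKM and 10.9 FPKM. Both were thus lowest in JUN AA. Furthest below the control in JUN AA was IRF7, which amplifies interferon production, at 30.9 FPKM with empty vector, 43.4 FPKM with JUN WT and 0.916 FPKM with JUN AA. Of the list, 11 genes passed the mean of 1 FPKM, and 5 of them were at least 2-fold lower in JUN AA than in the control. These include STAT2, IRF9, IRF7 and IRF1. SOCS1, an inhibitor of JAK kinases, was the 1 gene of the list at least 2-fold higher in JUN AA, at 18.3 FPKM against 8.13 FPKM with empty vector and 8.88 FPKM with JUN WT. Over all genes 5.29% were at least 2-fold higher in JUN AA and 3.77% lower.

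Of the 10 virus sensors and adaptors, 6 passed the filter, 2 were at least 2-fold higher in JUN WT and 4 at least 2-fold lower in JUN AA. DDX58 (RIG-I) had the largest JUN WT difference, at 4.06 FPKM with empty vector, 16.6 FPKM with JUN WT and 0.752 FPKM with JUN AA. DHX58 (LGP2) was the furthest below the control in JUN AA, with 6.47, 8.26 and 0.459 FPKM. A list of 30 other interferon-stimulated genes held 25 that passed. In JUN WT 8 of these were at least 2-fold higher and 0 lower, led by TDRD7 at 1.90 FPKM with empty vector and 10.02 FPKM with JUN WT. In JUN AA 15 were at least 2-fold lower and 0 higher, led by HELZ2 at 16.3 FPKM with empty vector and 1.27 FPKM with JUN AA. All genes gave 6.92% higher in JUN WT and 3.77% lower in JUN AA, as above. These lists were drawn up with earlier results of the same libraries known and overlap the effectors in function, so they are no independent sign of the direction.

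**Figure D4:**
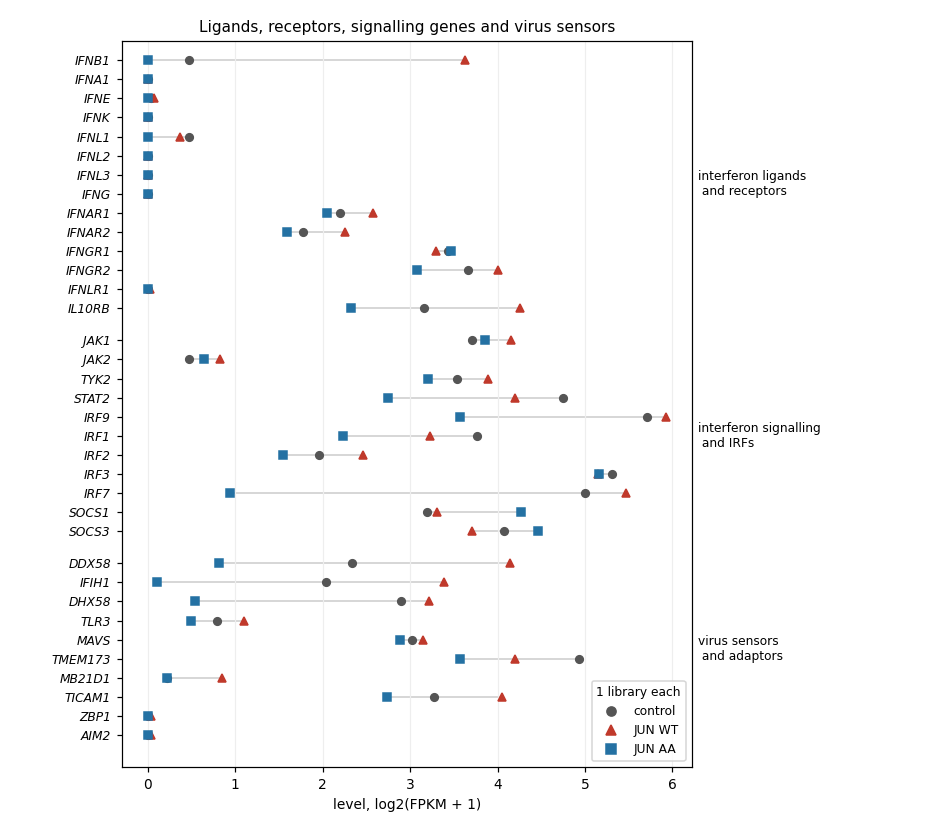
Levels of interferon ligands and receptors, signalling genes and IRFs except those not reported, and virus sensors in the control (circles), JUN WT (triangles) and JUN AA (squares), as log2(FPKM + 1) with 1 library each. IFNB1 is far from 0 only in JUN WT at 11.3 FPKM, and IRF7 has the widest gap between the control and JUN AA.

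The second table shows the effectors where JUN was not overexpressed. The response that chose the list was that of the first table, but the members were chosen with earlier results of these data known. The second table is therefore no independent check of the list. The members took 0.209% of the FPKM sum for MRC5, 0.160% for iCAFs and 0.209% for iCAFs+JNKi, 14 of the 45 were below 1 FPKM in all 3 libraries, and 29 passed the mean of 1 FPKM. In iCAFs against MRC5, 0 of these 29 were at least 2-fold higher and 0 lower, where 1.94% of all 11780 genes were higher and 1.71% lower, and the median over all 45 members was -0.11, against -0.06 over all genes. In iCAFs+JNKi against iCAFs, 1 was at least 2-fold higher and 2 lower, where 2.25% of all genes were higher and 1.97% lower, and the medians were -0.06 and -0.10. Such counts are 1 or 2 genes and give no result on the list as a whole. The order of the 3 levels also split, with 14 members counted as highest in MRC5 and lowest in iCAFs+JNKi, and 10 as highest in MRC5 and lowest in iCAFs. Another 9 counted as highest in iCAFs and lowest in iCAFs+JNKi, and 3 as highest in iCAFs and lowest in MRC5. Highest in iCAFs+JNKi were 7 with iCAFs lowest and 2 with MRC5 lowest. The shares of all genes in these orders were not computed, so the split gives no result on the list. The 14 include LAMP3, at 0 throughout, and OAS1, at 0 in both iCAFs and iCAFs+JNKi, and the 9 include RSAD2, at 0 in both MRC5 and iCAFs+JNKi. The 7 include RTP4, at 0 in both MRC5 and iCAFs. With 1 library each, equal levels were not shown either. IFNB1 was listed at 0 in all 3 libraries, and JUN was at 57.1 FPKM for MRC5, 55.3 FPKM for iCAFs and 21.1 FPKM for iCAFs+JNKi.

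**Figure D5:**
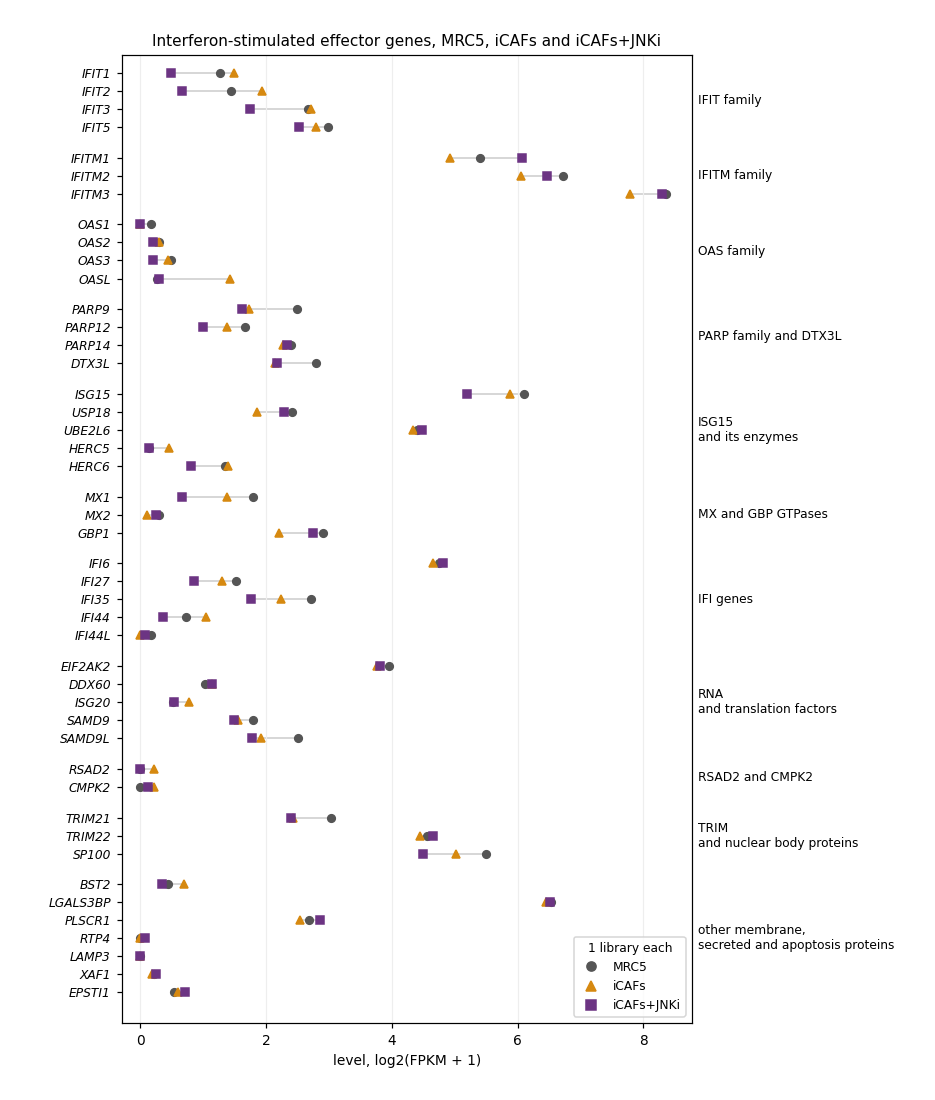
Levels of the 45 members in MRC5 (circles), iCAFs (triangles) and iCAFs+JNKi (squares), as log2(FPKM + 1) with 1 library each. Symbols of most genes lie close together, IFIT1 to IFIT3 are lowest in iCAFs+JNKi, and the IFITM genes are lowest in iCAFs.

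IFIT1, IFIT2 and IFITM1 were the only ones of the 29 members past the 2-fold line in iCAFs+JNKi against iCAFs, and their families are given in full. IFIT1 was at 1.39 FPKM for MRC5, 1.80 FPKM for iCAFs and 0.396 FPKM for iCAFs+JNKi, IFIT2 at 1.71, 2.83 and 0.577 FPKM, and IFIT3 at 5.35, 5.57 and 2.34 FPKM. Their log2 differences between iCAFs+JNKi and iCAFs were -1.004, -1.28 and -0.97, so IFIT1 lay just inside and IFIT3 just outside 2-fold. Without its iCAFs level, the mean of IFIT1 would also fall below 1 FPKM. IFIT5 was at 6.89, 5.90 and 4.75 FPKM, again with the smallest difference of its family (-0.26). IFITM1 was at 41.3 FPKM for MRC5, 29.5 FPKM for iCAFs and 65.8 FPKM for iCAFs+JNKi, IFITM2 at 105, 65.2 and 87.8 FPKM and IFITM3 at 326, 221 and 314 FPKM. All 3 IFITM genes were lowest in iCAFs, and IFITM1, at 1.13, was the only member at least 2-fold higher in iCAFs+JNKi.

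The OAS family was close to 0 in this table and none of its genes passed the mean of 1 FPKM. OAS1 was at 0.126 FPKM for MRC5 and listed at 0 in iCAFs and iCAFs+JNKi. OAS2 was at 0.224, 0.228 and 0.145 FPKM and OAS3 at 0.398, 0.349 and 0.143 FPKM. OASL was the exception in iCAFs, at 0.200 FPKM for MRC5, 1.69 FPKM for iCAFs and 0.227 FPKM for iCAFs+JNKi, log2 differences of 1.16 and -1.13 that the filter kept out of the counts. Among the PARP genes, PARP9 was at 4.61, 2.32 and 2.06 FPKM, the most negative member in iCAFs against MRC5 at -0.76, and its partner DTX3L was at 5.92, 3.42 and 3.49 FPKM. PARP12 was at 2.15, 1.60 and 1.003 FPKM and PARP14 at 4.24, 3.84 and 4.05 FPKM. All 4 were within 2-fold in both comparisons.

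Of the other members, GBP1 was at 6.48 FPKM for MRC5, 3.62 FPKM for iCAFs and 5.70 FPKM for iCAFs+JNKi, lowest in iCAFs like the IFITM genes. ISG15 was at 67.3, 57.6 and 35.6 FPKM, a log2 difference of -0.68 under the inhibitor. MX1 was at 2.44, 1.60 and 0.583 FPKM (-0.71) and IFI44 at 0.648, 1.06 and 0.283 FPKM (-0.68). IFI6, the member with the largest difference in JUN AA, was at 25.8 FPKM for MRC5, 24.1 FPKM for iCAFs and 27.1 FPKM for iCAFs+JNKi, log2 differences of -0.10 and 0.16. The 14 members below 1 FPKM in all 3 libraries were OAS1, OAS2, OAS3, HERC5, MX2, IFI44L, ISG20, RSAD2, CMPK2, BST2, RTP4, LAMP3, XAF1 and EPSTI1. UBE2L6 lay between 19.2 and 21.2 FPKM and LGALS3BP between 86.0 and 91.3 FPKM, so both were nearly level across the table.

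Upstream genes differed by single members in the second table. IRF9 was at 16.6 FPKM for MRC5, 11.5 FPKM for iCAFs and 10.05 FPKM for iCAFs+JNKi. STAT2 was at 27.6, 17.3 and 36.7 FPKM and was the 1 signalling gene at least 2-fold higher in iCAFs+JNKi than in iCAFs (1.05). SOCS3, an inhibitor of cytokine signalling, was the 1 at least 2-fold higher in iCAFs than in MRC5. Its levels were 8.78 FPKM for MRC5, 23.2 FPKM for iCAFs and 13.4 FPKM for iCAFs+JNKi. All 12 signalling genes passed the mean of 1 FPKM in this table. The matching share of all 11780 genes was 2.25% in the comparison that named STAT2 and 1.94% in that of SOCS3. A single gene out of 12 gives no result on the list. IFNAR1 was at 11.1, 13.3 and 11.1 FPKM and IFNAR2 at 5.26, 8.63 and 5.45 FPKM. IFNE, which encodes interferon epsilon, was at 1.11, 1.75 and 0.266 FPKM, a log2 difference of -1.12 under the inhibitor.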

How the data were processed

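RNA-seq of 6 MRC5 libraries, 1 per condition, was read from 2 tables of 3 libraries. The authors mapped reads to hg19 (GRCh37) with HISAT2 2.1.0 and took the deposited FPKM of each gene from StringTie 2.1.1. Per the labels the RNA kit was NEBNext Ultra. The annotation, strand setting and number of reads are not given in the sources used here. FPKM are not counts, so no count model was used. The tables were normalised separately.

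Differences of log2(FPKM + 1) between libraries of the same table were taken with Python 3.11.15, numpy 2.4.6 and pandas 2.3.3, and figures were drawn with matplotlib 3.10.9. Counts of 2-fold genes, a log2 difference of at least 1, used genes whose mean over the 3 libraries was 1 FPKM or more. Of rows with the same symbol the one with the highest mean was kept. The procedure was tested on simulated data. No test between conditions was possible with 1 library each, and neither depth nor the precision of a value can be given. The members and gene lists were chosen with earlier results of these data known. Every member is named. Values are given for all IFIT, IFITM, OAS and PARP genes, the 3 highest and 3 lowest differences of each comparison, and JUN, IFNB1, IFNAR1, IFNAR2, STAT2 and IRF9. Extremes of each pathway list could be named and only some are, and other values were added after they were seen. Some genes of the lists are not reported here. The 4 interferon lambda symbols of the lists were matched by their current names. Gene positions came from GRCh37 with GENCODE and promoters from RefSeq on GRCh38.p14, matched by symbol. The alternatives were a pseudocount of 0.1, FPKM rescaled to the same sum, differences centred on the median gene, no filter, a filter of 5 FPKM and summed rows of the same symbol.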

Additional observations from a re-analysis of the deposited data

How the results depend on the processing

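No paired analysis was possible because each condition has 1 library, and leaving out a library was not possible for the same reason. Of 90 values of the list medians and 2-fold counts under the alternatives, 80 stayed within 0.25 on the log2 scale or within 1.5 times the count. The median of the members in JUN AA against the control, -2.02, was -2.90 with a pseudocount of 0.1, -2.45 with FPKM rescaled to the same sum and -2.54 at a mean of at least 5 FPKM. In JUN WT against JUN AA the median of 2.97 became 4.10, 3.68 and 3.77 in the same order. A smaller pseudocount widens the difference of low genes by construction, and the stricter filter leaves fewer of them. Rescaling to a sum above that of every library acts in part like a smaller pseudocount. In iCAFs against MRC5 the count of members at least 2-fold higher went from 0 to 1 with no filter, the added gene being OASL. In iCAFs+JNKi against iCAFs the count of members at least 2-fold lower went from 2 to 5 with a pseudocount of 0.1, to 1 with differences centred on the median gene and to 0 at a mean of at least 5 FPKM. The count of members at least 2-fold higher in JUN WT than in the control ranged from 17 to 25, that of members lower in JUN AA from 27 to 41 and that of members higher in JUN WT than in JUN AA from 30 to 43. The counts of 27 and 30 came from the filter of 5 FPKM, which fewer members pass, so they are not smaller shares by themselves. The shares over all genes were not computed under the alternatives. No median of the first table changed sign, and the median in iCAFs+JNKi against iCAFs, -0.06, lay between -0.08 and 0.15. Centring turned the sign of the small differences of LGALS3BP and XAF1 in JUN WT against the control, of OAS3 and XAF1 in iCAFs against MRC5, and of SAMD9, CMPK2 and TRIM21 in iCAFs+JNKi against iCAFs, where rescaling also turned SAMD9 and TRIM21. Other causes were not tested. A level near 0 FPKM cannot be told from 0, because the depth is unknown.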

Other observations

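The interferon-inducible chemokines of the pathway lists CXCL10, CXCL11 and CCL5 are given as values, chosen after the values were seen. CXCL10, a ligand of the chemokine receptor CXCR3, was at 5.64 FPKM with empty vector, 7.82 FPKM with JUN WT and 0.554 FPKM with JUN AA. In the second table CXCL10 was at 0.388 FPKM for MRC5 and 3.48 FPKM for iCAFs and listed at 0 in iCAFs+JNKi. CXCL11, a second CXCR3 ligand, was at 0.574 FPKM with empty vector and 2.11 FPKM with JUN WT and was listed at 0 with JUN AA. CCL5, which attracts T cells and monocytes, was at 2.72 FPKM with empty vector and 8.66 FPKM with JUN WT, listed at 0 with JUN AA and in all 3 libraries of the second table. IFI16, a nuclear DNA sensor, was the gene of its list furthest below MRC5 in iCAFs, at 45.5 FPKM for MRC5, 18.1 FPKM for iCAFs and 18.7 FPKM for iCAFs+JNKi.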
